A study of Mus musculus with 6 samples.

Results

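The 8 genes described here are the metallothioneins Mt1 and Mt2, their activator Mtf1, the zinc exporters Slc30a1 and Slc30a5 and the zinc importers Slc39a1, Slc39a6 and Slc39a10. They were taken by symbol from the 26216 gene names of an RNA-sequencing experiment, and all 8 were found and passed the filter on low values. The set was put together with the difference between the 2 genotypes already known, Mt1 and Mt2 being among the genes with the largest rise. The differences of these 8 genes are therefore given as a description, without p-values, and where genes past a threshold are counted the count stands beside the share of all tested genes. LT/ST-HSCs, long-term and short-term hematopoietic stem cells, were sorted from mixed bone marrow chimeras 6 weeks after transplantation. In these chimeras, lethally irradiated Ly5.1/Ly5.2 mice had received stem and progenitor cells of an Ltbr-/- donor (CD45.2) and of a Ly5.1 donor (CD45.1) together. Ltbr-/- cells lack the lymphotoxin-β receptor in every cell of the donor, through a homozygous deletion inside the gene, and Ly5.1 cells carry the receptor and the CD45.1 form of Ptprc. Irradiation and transplantation were thus shared by both groups, and the cells of 6 chimeras had been pooled to 3 replicates for each genotype. Donors of the Ltbr-/- replicates were aged 13 weeks, 10 weeks and 10 to 13 weeks, and donors of all 3 Ly5.1 replicates 7 to 13 weeks.

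Metallothioneins are small cysteine-rich proteins that bind zinc and copper and take part in the defence against heavy metals and oxidants. Their genes are activated by MTF1, a zinc-finger factor that senses free zinc and binds metal response elements in promoters. Zinc transporters of the SLC30 family move zinc out of the cytosol, across the plasma membrane or into vesicles and the secretory pathway, and those of the SLC39 family move it into the cytosol. In blood-forming cells zinc is needed by many transcription factors and enzymes, and metallothionein transcripts also respond to glucocorticoids and other stress signals.

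Mt1 and Mt2 lie next to each other on chromosome 8 of GRCm38.p6 and are read in the same direction, Mt2 at chr8:94172618-94173567 and Mt1 at chr8:94178883-94180327. Their starts are 6.27 kb apart. The RefSeq promoter windows of both genes are shown because their RNA differed most among the 8 genes. That of Slc30a1 is shown because this gene is a known target of MTF1. The signal of Slc30a1 was low, with a log2 difference of 0.03. Each window runs from 250 bases before to 50 bases after a RefSeq transcript start, which for Mt1 and Slc30a1 lies inside the span of the gene, and capitals mark the core of the metal response element (TGCACNC or TGCGCNC, on either strand).
Mt1 promoter, chr8:94178839-94179138, + strand: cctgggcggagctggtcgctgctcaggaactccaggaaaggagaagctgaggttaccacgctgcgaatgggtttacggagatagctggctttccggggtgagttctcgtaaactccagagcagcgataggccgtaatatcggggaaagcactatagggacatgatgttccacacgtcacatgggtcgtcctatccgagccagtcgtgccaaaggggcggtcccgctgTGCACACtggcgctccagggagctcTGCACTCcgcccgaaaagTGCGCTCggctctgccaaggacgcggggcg
Mt2 promoter, chr8:94172368-94172667, + strand: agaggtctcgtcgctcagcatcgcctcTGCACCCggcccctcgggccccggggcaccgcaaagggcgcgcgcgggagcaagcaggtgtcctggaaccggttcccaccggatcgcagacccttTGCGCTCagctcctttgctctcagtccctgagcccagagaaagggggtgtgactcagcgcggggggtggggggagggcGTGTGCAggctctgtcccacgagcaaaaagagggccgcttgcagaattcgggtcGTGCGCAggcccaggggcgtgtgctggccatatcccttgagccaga
Slc30a1 promoter, chr1:191906531-191906830, + strand: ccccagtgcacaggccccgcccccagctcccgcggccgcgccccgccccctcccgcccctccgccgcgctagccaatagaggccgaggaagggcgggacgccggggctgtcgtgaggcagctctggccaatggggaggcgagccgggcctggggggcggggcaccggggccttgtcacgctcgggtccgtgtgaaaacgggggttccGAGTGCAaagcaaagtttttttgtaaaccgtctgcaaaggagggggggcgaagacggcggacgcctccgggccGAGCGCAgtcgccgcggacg
The core occurred at 3 places in the Mt1 window, at 4 in the Mt2 window and at 2 in the Slc30a1 window. Of 32851 RefSeq promoter windows of the same length, 25.7% held at least 1 core, 6.14% at least 2, 1.31% at least 3 and 0.295% at least 4. The Slc30a5 window held 1 core, and the windows of Mtf1, Slc39a1 and Slc39a10 held 0. The window of Mt3 and that of Mt4, the other genes of the cluster, held 1 each. The pattern TGACNNNGC of the antioxidant response element, which does not overlap the capitals, was found once each in the windows of Mt2, Slc30a1, Slc30a5 and Slc39a1 and not in that of Mt1; 12.4% of all windows held it. The Mt1 window ended at 94179138, inside the gene. Bases outside the windows were not searched, so each count, also the missing antioxidant match of Mt1, holds for its window only. These matches describe letters and are no measurement of binding.

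The values are the signal deposited by the authors, 2 raised to the power of a regularized logarithm, which holds a size factor for each sample and pulls weak genes towards a common value. The files hold no read counts, so the number of reads behind a single value is unknown; the study gives its sequencing depth only as an average over samples. The deleted gene Ltbr had a signal of 23.1 to 26.4 in the Ltbr-/- and of 522 to 564 in the Ly5.1 samples, as the labels require. The genes of the sorting gate were at 5179 to 6103 for Kit (c-kit), 541 to 767 for Ly6a (Sca1) and 259.8 to 329 for Slamf1 (CD150), and Cd48, for which the cells were negative, was at 20.1 to 28.9. With limma over 13108 tested genes, 364 (2.78%) passed both thresholds, which were a fold of 1.5 in either direction together with an adjusted p under 0.05. Ltbr-/- cells were higher in 356 of them (2.72%) and lower in 8 (0.061%). When every sample was centred on the ribosomal protein genes instead, which lowers the median of all genes by 0.89 on the log2 scale, all 12037 genes called were lower.

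Mt1 and Mt2 were about 2.5-fold higher in Ltbr-/- than in Ly5.1 LT/ST-HSCs, while Mtf1 and the 5 zinc transporters stayed within a fold difference of 1.5. Mt1, which encodes metallothionein 1, had a signal of 8565, 8612 and 9518 in replicates 1 to 3 of Ltbr-/- cells, where the Ly5.1 replicates had 3445, 3520 and 3922. The lowest Ltbr-/- sample thus lay above the highest Ly5.1 sample, by 1.13 on the log2 scale. The means were 8898 ± 537 (SD, n = 3) and 3629 ± 257 (SD, n = 3), a log2 difference of 1.29 (standard error 0.07) or 2.45-fold. Mt2, which encodes metallothionein 2, had a signal of 7255, 7422 and 7745 in Ltbr-/- and of 2989, 2758 and 3234 in Ly5.1 cells. Here too the groups did not overlap, with a gap of 1.17 on the log2 scale. The means were 7474 ± 249 (SD, n = 3) and 2994 ± 238 (SD, n = 3), a log2 difference of 1.32 (standard error 0.07) or 2.50-fold.

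Both metallothionein genes moved in proportion. The ratio of the Mt2 signal to the Mt1 signal was 0.847, 0.862 and 0.814 in Ltbr-/- cells, and 0.868, 0.784 and 0.825 in Ly5.1 cells. The group means of 0.841 ± 0.025 (SD, n = 3) and 0.825 ± 0.042 (SD, n = 3) differed by less than either SD, and the samples of both groups overlapped. In each genotype the third replicate had the highest signal of both genes. Among the Ltbr-/- replicates, the one with donors of 13 weeks and the one with donors of 10 weeks had nearly the same Mt1 signal, 8565 and 8612. These are single samples, and the part of donor age was not tested. A part of the 76-base stretches of Mt2 transcripts, 29.7%, also occurs in the gene model Gm45774, so that its reads may have been split, whereas 0 of those of Mt1 occur in another gene.

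**Figure D1:**
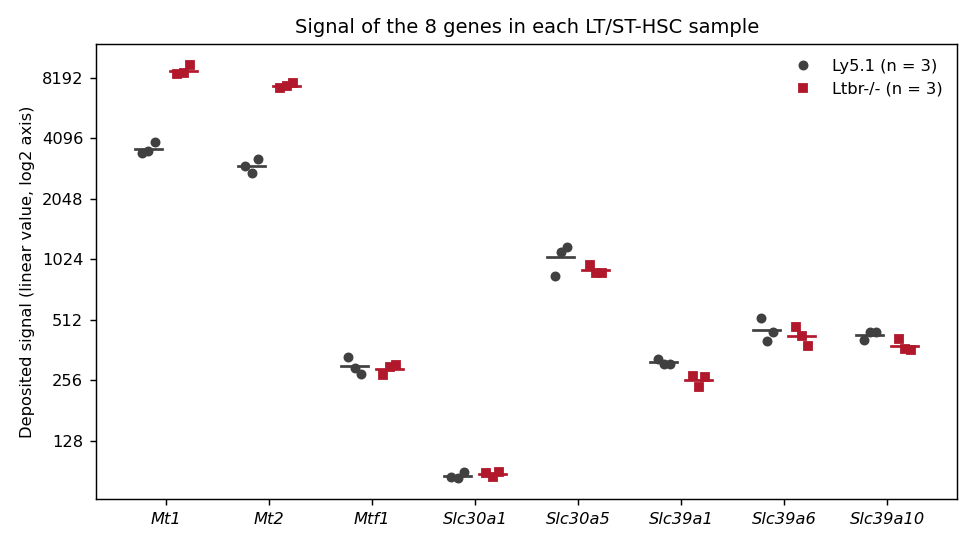
Deposited signal of the 8 genes in each sample, on a log2 axis, for 3 Ly5.1 (grey circles) and 3 Ltbr-/- samples (red squares), with bars at the group means. The points of Mt1 and Mt2 lie apart between the genotypes, from 7255 upwards in Ltbr-/- and up to 3922 in Ly5.1 cells, and those of the other genes lie close together.

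Mtf1, the zinc-sensing activator of both genes, lies at chr4:124802549-124849800. Its signal was 270.2, 297 and 304 in Ltbr-/- and 333, 294 and 275 in Ly5.1 LT/ST-HSCs. The groups overlapped, and the highest and the middle value of Ly5.1 enclosed 2 of the 3 Ltbr-/- values. The means were 290.4 ± 17.9 (SD, n = 3) and 301 ± 29.6 (SD, n = 3), with a log2 difference of −0.05 (standard error 0.10). Its sign depended on single samples, being −0.11 without Ly5.1 replicate 3 and 0.03 without Ly5.1 replicate 1. The level of an mRNA does not measure how much MTF1 protein is active in the nucleus.

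Among the exporters, Slc30a1 (chr1:191906697-191913248) encodes ZnT1, which moves zinc out across the plasma membrane. Its signal was 87.9, 84.7 and 89.0 in Ltbr-/- and 84.8, 83.2 and 88.9 in Ly5.1 cells. The means of 87.2 ± 2.21 (SD, n = 3) and 85.6 ± 2.93 (SD, n = 3) were closer to each other than either SD, and the log2 difference was 0.03 (standard error 0.07). At this low signal the regularized logarithm holds samples together, so a small change could have been drawn in. Slc30a5 (chr13:100802645-100833480) encodes ZnT5, which loads zinc into the secretory pathway. Its signal was 954, 869 and 876 in Ltbr-/- and 846, 1114 and 1173 in Ly5.1 cells. A single Ly5.1 sample, replicate 1, lay below all Ltbr-/- samples while the other two lay above them, and the coefficient of variation was 16.7% in Ly5.1 against 5.26% in Ltbr-/- cells. The log2 difference of −0.20 (standard error 0.10) became −0.35 without Ly5.1 replicate 1.

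The 3 importers all had lower means in Ltbr-/- cells. Slc39a1 (chr3:90248190-90253613) encodes ZIP1, a zinc importer of the plasma membrane that many cell types express. Its signal was 267, 238 and 265 in Ltbr-/- and 328, 309 and 307 in Ly5.1 cells. This was the only gene among the 6 besides Mt1 and Mt2 whose groups did not overlap. Its log2 difference was −0.30 (standard error 0.09), a fold of 0.814, and omitting any 1 sample kept it within −0.33 to −0.24. Of the 76-base stretches of its transcripts, 17.8% also occur in the pseudogene Slc39a1-ps. Slc39a10 (chr1:46807544-46925776) encodes ZIP10, an importer needed in early B cells. Its signal was 408, 367 and 361 in Ltbr-/- and 405, 446 and 443 in Ly5.1 cells, so that Ltbr-/- replicate 1 lay above Ly5.1 replicate 1. The log2 difference was −0.19 (standard error 0.09). Slc39a6, on chromosome 18, encodes ZIP6, a close relative of ZIP10 with which it can form a complex. Its signal was 469, 422 and 378 in Ltbr-/- and 520.04, 402 and 444 in Ly5.1 cells. The groups overlapped, and the coefficient of variation of 10.9% in Ltbr-/- cells was the largest of the 8 genes in that genotype. The log2 difference was −0.10 (standard error 0.10), and it was −0.0027 without Ly5.1 replicate 1 and −0.19 without Ly5.1 replicate 2.

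Over all 8 genes, 2 passed both thresholds, against 2.78% of all tested genes, and the groups did not overlap in 3, against 30.4%. With an adjusted p under 0.05, 2 of the 8 were higher, against 10.6% of all tested genes, and 1 was lower, against 4.18%. Nothing is read from these counts, since the set was chosen on this contrast. The median log2 difference of the 8 genes was −0.07, that of the 6 without Mt1 and Mt2 was −0.15 and that of all tested genes −0.01. The median of the 8 rested on single samples and was 0.008 without Ly5.1 replicate 1. Of the 6, 5 had a difference below 0, from −0.30 to −0.05, and Slc30a1 was at 0.03. Slc30a1 and Slc39a10 are on chromosome 1, as is Ptprc, at which the donors differ. They are 53.7 and 91.1 Mb away from it, and none of the 8 genes is on chromosome 6, where Ltbr lies. Whether other differences between the donors bear on the 8 genes was not tested.

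**Figure D2:**
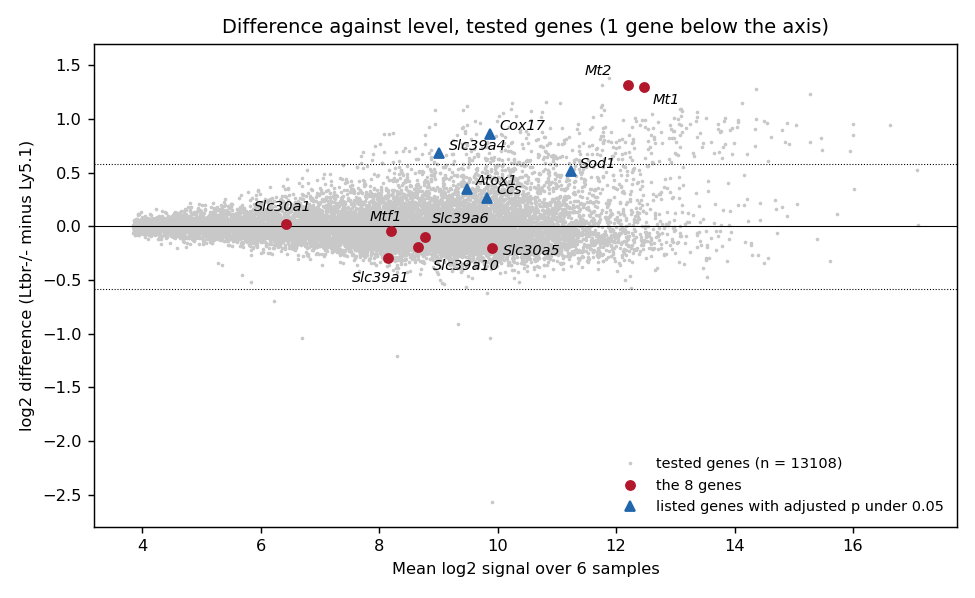
Log2 difference between Ltbr-/- and Ly5.1 samples (n = 3 each) against the mean log2 signal for 13108 tested genes (grey), with the 8 genes in red and the listed metal-handling genes with an adjusted p under 0.05 in blue. Dotted lines mark a fold of 1.5. Mt1 and Mt2 lie at the top at 1.29 and 1.32, and the other 6 genes between −0.30 and 0.03. After centring on ribosomal protein genes, all 5 blue genes were below 0.

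For a comparison of levels between genes, the signal was divided by transcript length in kb. In Ly5.1 cells Mt1 had 6610 ± 467 (SD, n = 3) signal per kb and Mt2 5859 ± 466 (SD, n = 3), and the samples of these genes overlapped. In Ltbr-/- cells they reached 16208 ± 978 (SD, n = 3) and 14626 ± 487 (SD, n = 3) and did not overlap. The next gene, Slc30a5, had 329 ± 54.8 (SD, n = 3) in Ly5.1 and 283 ± 14.9 (SD, n = 3) in Ltbr-/- cells, so that the signal per kb of Mt2 was 17.8 times as high in Ly5.1 and 51.7 times as high in Ltbr-/- cells. Slc39a1 followed with 133 ± 4.83 (SD, n = 3) and Slc39a6 with 117 ± 15.5 (SD, n = 3) in Ly5.1 cells, with overlapping samples in both genotypes. Below them came Slc39a10 at 78.5, Mtf1 at 39.4 and Slc30a1 at 16.3 in Ly5.1 cells, none overlapping with its neighbour in the order. The activator and the exporter that it controls thus had the lowest signal per length of the set, and Mt1 and Mt2 the highest.

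The remaining members of the same families were taken whole. Of the other metallothioneins, Mt4, a gene of stratified epithelia, was listed at 1 in all 6 samples. Mt3, best known from the brain, had a signal of 137, 125 and 143 in Ltbr-/- and of 96.3, 118 and 137 in Ly5.1 cells. Its groups overlapped, and its log2 difference of 0.21 had an adjusted p of 0.139 from limma. Of the 19 other zinc transporters, 13 were tested and 6 had too low a signal. Of the 13, 1 passed both thresholds, against 2.78% of all genes, and the median log2 difference was 0.003 against −0.01 for all tested genes.

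That gene was Slc39a4, which encodes ZIP4, the importer by which the gut takes up zinc and whose loss causes the zinc deficiency acrodermatitis enteropathica in humans. Its signal was 656, 633 and 682 in Ltbr-/- and 407.4, 407.0 and 414 in Ly5.1 LT/ST-HSCs. The groups lay apart, with means of 657 ± 24.7 (SD, n = 3) and 409.6 ± 4.15 (SD, n = 3). It was 1.60-fold higher, 0.68 on the log2 scale with a standard error of 0.09 (limma, adjusted p = 2.89e-07), but stood at −0.20 once samples were centred on ribosomal protein genes. Relative to the median of all genes it was at 0.69 with and without that centring. The other 7 tested importers outside the set had log2 differences between −0.16 for Slc39a9, a Golgi transporter, and 0.09 for Slc39a7, which releases zinc from the endoplasmic reticulum. The 5 tested exporters outside the set lay between −0.18 for Slc30a7 and 0.08 for Slc30a6, both transporters of the secretory pathway. Of these 5, 0 had an adjusted or an unadjusted p under 0.05 in limma, where 14.8% of all tested genes had such an adjusted p. A p above the threshold does not show that these genes were equal.

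Metallothioneins also bind copper, and 11 genes of copper handling were examined. Of these, 4 had an adjusted p under 0.05 and all 4 were higher, against 10.6% of all tested genes, but all 4 fell below 0 after centring on ribosomal protein genes. The list had a median log2 difference of 0.15. Cox17 encodes the chaperone that carries copper to cytochrome c oxidase. Its signal was 1267, 1235 and 1314 in Ltbr-/- and 647, 633 and 833 in Ly5.1 cells, without overlap. On the log2 scale it was higher by 0.86 with a standard error of 0.10 (limma, adjusted p = 5.60e-09), and that centring brought it to −0.017. Sod1, the copper and zinc superoxide dismutase, had a signal of 2860, 2766 and 3015 in Ltbr-/- and of 2049, 1746 and 2290 in Ly5.1 cells. It rose by 0.51 on the log2 scale (adjusted p = 2.48e-05 from limma), under the fold threshold, and was at −0.37 after that centring. Atox1, which hands copper to the export pumps, was at 0.35 (adjusted p = 0.00646 from limma), and Ccs, the chaperone of Sod1, at 0.27 (adjusted p = 0.0415 from limma), with −0.53 and −0.61 after that centring. Relative to the median of all genes, which that centring shifts with them, the 4 genes kept 0.87, 0.53, 0.36 and 0.28 in the order given. Correcting by loess for the length and the GC content of transcripts left Cox17 and Sod1 past an adjusted p of 0.05. It brought Atox1 to 0.19 (adjusted p = 0.162 from limma) and Ccs to 0.14 (adjusted p = 0.320 from limma). Cox17 entered this correction with a transcript of 3690 bases and rose to 0.91. Sod1, Atox1 and Ccs entered with 641, 541 and 1067 bases, and Sod1 fell to 0.35. How Cox17 would stand with a shorter transcript was not tested. The lowest value of the list was that of the copper pump Atp7a, at −0.05.

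Of 4 further genes known to depend on MTF1, 0 had an adjusted p under 0.05 in limma, against 14.8% of all tested genes. Of these 4, 2, Gclc and Slc40a1, had an unadjusted p under 0.05 in limma. The 4 genes were Gclc, an enzyme of glutathione synthesis, at −0.22, the iron exporter Slc40a1 at −0.17, the selenoprotein gene Sepw1 at −0.06 and Ndrg1 at 0.02, with a median of −0.12. The samples overlapped between genotypes in all of them but Slc40a1. Of 10 glucocorticoid-responsive genes, 9 were tested and 0 had an adjusted p under 0.05 in limma, against the same 14.8%. Lists this short cannot tell 0 from that share. An unadjusted p under 0.05 in limma was seen in 2 of the 9, and the share of all tested genes was not determined for it. The log2 differences of the 9 ran from −0.22 for Nr3c1, the glucocorticoid receptor itself, to 0.15 for Klf9, with a median of −0.002. Tsc22d3 and Fkbp5, both strongly induced by glucocorticoids in many cells, were at −0.002 and −0.14. Over the lists without the 8 genes, 38 genes were tested, 2 passed both thresholds and 5 had an adjusted p under 0.05, against 2.78% and 14.8% of all tested genes.

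**Figure D3:**
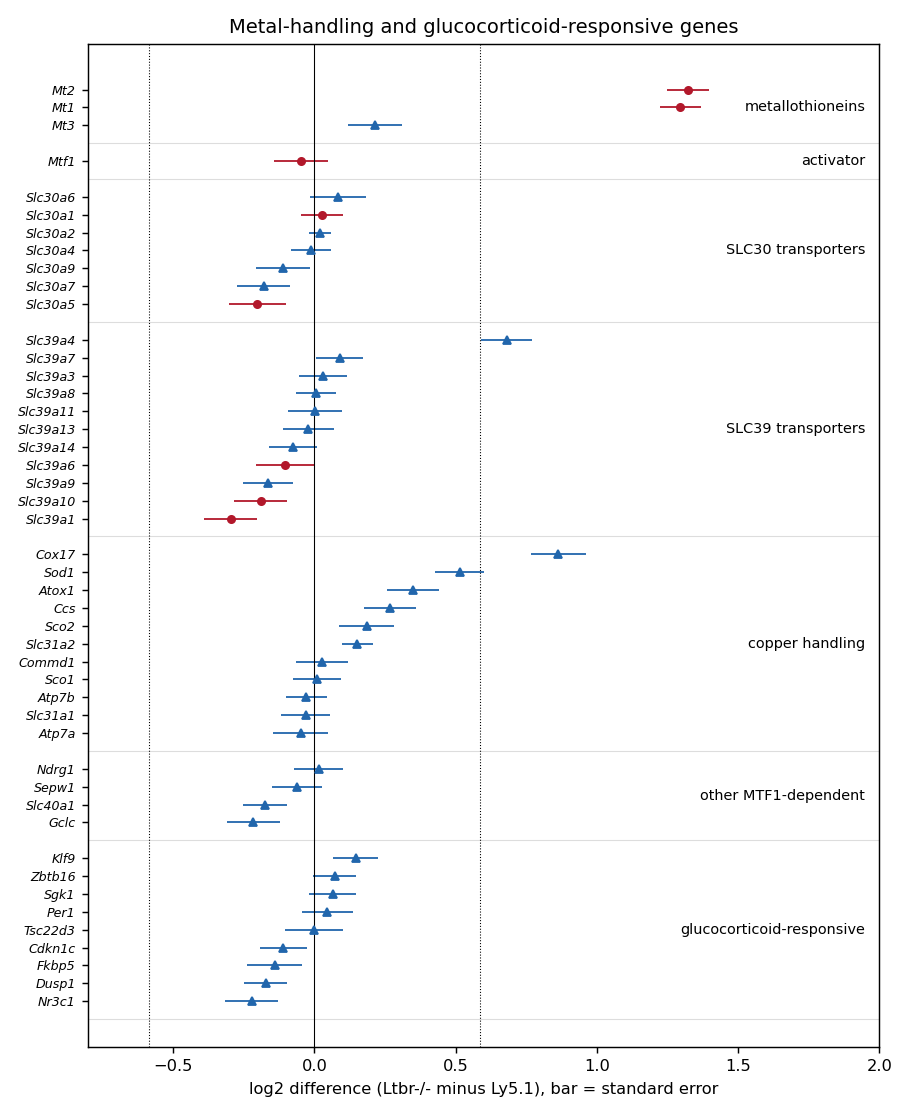
Log2 difference (Ltbr-/- minus Ly5.1, n = 3 each) with its standard error for the tested genes of each list, the 8 genes in red and the others in blue, with dotted lines at a fold of 1.5. Mt1 and Mt2 stand at 1.29 and 1.32, Cox17 at 0.86 and Slc39a4 at 0.68, and all others lie under the fold threshold. Centring on ribosomal protein genes moved Cox17 to −0.017 and Slc39a4 to −0.20.

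The genes around Mt1 and Mt2 on chromosome 8 showed smaller differences. The 10 nearest tested genes on each side span 2705 kb to the left and 658 kb to the right of the pair. Of these 20 genes, 9 were above 0, 0 passed both thresholds, 5 had an unadjusted and 3 an adjusted p under 0.05 from limma, against 14.8% of all tested genes. These were Nudt21, a factor of mRNA 3′ end formation, at 0.39, Nlrc5, an activator of MHC class I genes, at −0.34 and Ciapin1, which assembles iron-sulfur clusters, at 0.35. The gene next to the pair on the left was Mt3, 18.5 kb away, and the one on the right was the nuclear pore gene Nup93, 34.2 kb away and at 0.15.

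**Figure D4:**
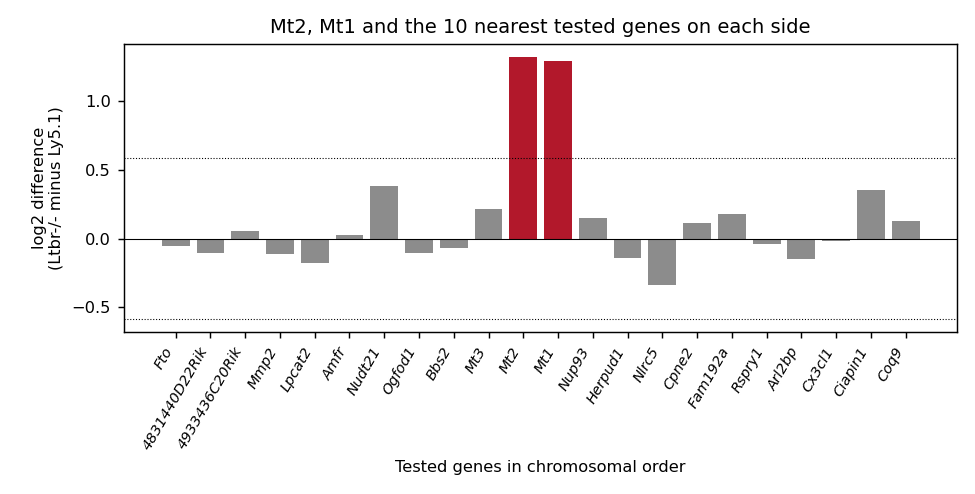
Log2 difference (Ltbr-/- minus Ly5.1, n = 3 each) of Mt2 and Mt1 (red) and of the 10 nearest tested genes on either side (grey), in chromosomal order, with dotted lines at a fold of 1.5. The neighbours lie between −0.34 and 0.39, the pair at 1.32 and 1.29.

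Transcript length and signal level moved with the difference between genotypes. The transcripts of Mt1 and Mt2 are short, 549 and 511 bases, while those of the other 6 genes have 2364 to 7631 bases. Over 12687 tested genes with a known transcript length, the median log2 difference fell from 0.11 in 554 genes with transcripts of up to 700 bases to −0.09 in 1386 genes with more than 6000. Among 245 tested genes with transcripts of 450 to 650 bases, Mt1 and Mt2 included, the median was 0.21 and 23.3% were called higher. In this set 2 genes had a larger difference than Mt1, namely Mt2 itself and the homeobox gene Rhox5, at 1.38. Of the 500 tested genes with the highest mean signal, which also include the pair, 26.4% were called higher. The same loess correction lowered Mt1 to 1.13 and Mt2 to 1.15, left Slc39a1 at −0.31 and turned Mtf1 from −0.05 to 0.05. It moved Slc30a5 to −0.17, Slc39a10 to −0.12, Slc39a6 to −0.06 and Slc30a1 to 0.09. With centring on ribosomal protein genes, Mt1 was at 0.41 and Mt2 at 0.44, which is 1.31 and 1.33 above the median of all genes under that scaling. The pair was above 0 under both settings, at a smaller size.

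**Figure D5:**
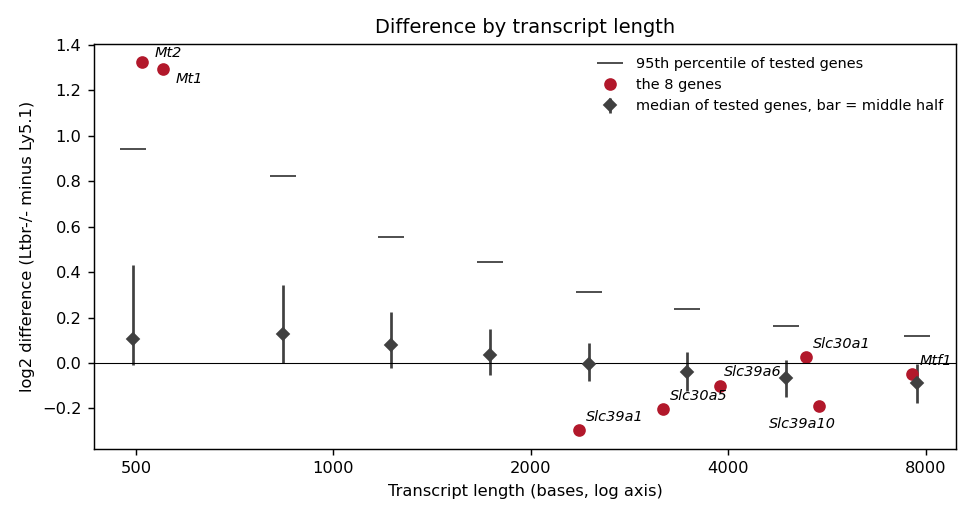
Log2 difference (Ltbr-/- minus Ly5.1, n = 3 each) against transcript length on a log axis. Grey diamonds give the median of all tested genes in 8 length classes with a bar from the lower to the upper quartile, dashes their 95th percentile, and red circles the 8 genes. Mt1 and Mt2 lie above the 95th percentile of the shortest class, 0.94, and Slc39a1 is the lowest of the 8.

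The genes whose values over the 6 samples were most like the mean profile of Mt1 and Mt2 were searched among all tested genes, by the root mean square difference of centred log2 values. Mt1 and Mt2 differed from each other by 0.05 on this measure, and Mt1 was the nearest gene to Mt2, while Mt2 was the 3rd nearest to Mt1. The closest other gene was Cma1, a mast cell chymase, at 0.04. Next came the interferon-induced Ifitm1, the glycolytic enzyme Aldoa, the homeobox gene Rhox5, the ferritin light chain Ftl1 and the gene model Gm8210, between 0.04 and 0.10. Cyp11a1, which starts steroid synthesis, the glycolytic enzyme Pgk1, the heme oxygenase Hmox1 and the noncoding 2410006H16Rik completed the 10 genes, up to 0.11, where the median of all tested genes was 0.67. By this choice all 10 were higher in Ltbr-/- cells, with log2 differences from 1.09 to 1.38. Likeness over 6 samples is set here mostly by the genotype difference, so that it says little on how the genes vary within a genotype. Hmox1 is on the same chromosome as the pair, and the other 9 are on other chromosomes.

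Since the samples are bulk RNA of sorted cells, fewer cells of a type and less RNA per cell cannot be told apart. Of the marker lists of other cell types, 4 had higher sums in every Ltbr-/- sample than in every Ly5.1 sample, in each case mostly through 1 or a few genes. For the counts below, 2.72% of all tested genes were called higher, and 14.8% had an adjusted p under 0.05 in either direction. The summed signal of the 10 mast cell markers was 6938 to 7393 in Ltbr-/- and 3202 to 3795 in Ly5.1 cells, of which Cma1 gave 5262 to 5795 and 2032 to 2452. Of these markers, Mcpt1, Mcpt2 and Tpsb2 were listed at 1 in all samples, and only Cma1 passed both thresholds among the 5 tested. Cpa3 was at 0.56 without overlap and Hdc at 0.10, while Fcer1a was at −0.10 and Ms4a2 at −0.04, and the median was 0.10. The sum of 7 macrophage markers was 2457 to 2744 in Ltbr-/- and 1866 to 2106 in Ly5.1 cells with 1 of 6 tested genes, Emr1, called higher at 0.83. Csf1r and Mrc1 were at −0.27 and −0.12, and the median of the list was 0.03. The 5 erythroid markers found summed to 3403 to 3731 and 2519 to 2778 with 1 of 5, Hba-a1, called higher at 0.99, while Car1 was at −0.14 and the median was 0.04. Megakaryocyte markers summed to 11921 to 12648 in Ltbr-/- and 9493 to 10726 in Ly5.1 cells, nearly all of it from Itga2b, which was at 0.31. The other 3 tested markers were lower, with Pf4 at −0.33, and the median was −0.04. Of the 4 tested, 0 passed both thresholds, while 2 had an adjusted and 2 an unadjusted p under 0.05 in limma, Itga2b higher and Pf4 lower. In the opposite direction, 8 neutrophil markers summed to 42902 to 43418 in Ltbr-/- and 56241 to 60671 in Ly5.1 cells. All 8 were lower at an adjusted p under 0.05 in limma, against 4.18% of all tested genes, and 0 were past the fold threshold. The 6 B cell markers summed to 1397 to 1532 and 2251 to 2415. Of the 4 tested, 2, Ighm and Igkc, were called lower, against 0.061% of all tested genes, and 1, Cd79a, higher. T cell markers summed to 42.5 to 45.6 over all samples. A list of 7 stem cell markers, Kit, Ly6a and Slamf1 of the gate with Procr, Mecom, Hlf and Cd34, summed to 10773 to 11164 in Ltbr-/- and 12358 to 12721 in Ly5.1 cells. Cd48 and Flt3, which are low or absent in the most primitive cells, summed to 727 to 892 and 922 to 955. Nearly all of this came from Flt3, at 705 to 863 in Ltbr-/- and 902 to 927 in Ly5.1 cells. Flt3 was thus not low, lying above Slamf1 in every sample, and it was not part of the sorting gate. The part of other cell types in the values of Mt1, Mt2 and Slc39a1 was not tested.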

How the data were processed

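Total RNA of FACS-purified LT/ST-HSCs was sequenced in 3 Ltbr-/- and 3 Ly5.1 samples. The authors used SeqMan NGen for assembly and ArrayStar for quantification of single reads. The signal that they deposited for each gene is 2 raised to the power of a regularized logarithm. That scale was inferred from the values. The submitters' processing notes name GRCm38, mm10 and DESeq2. Groups and replicate numbers came from the sample titles. Of 26595 values per file, names occurring more than once kept the entry with the highest mean, and the upper 50% of names by mean log2 signal were tested. Log2 signals entered lmFit, followed by eBayes with its trend option (limma 3.58.1, R 4.3.3). P-values were adjusted by Benjamini-Hochberg over 13108 genes, and the thresholds of the study were used, a fold of 1.5 in either direction with an adjusted p under 0.05. The model was tested on simulated data. Lengths, GC content and 76-base stretches came from GENCODE M21 transcripts (APPRIS principal, best supported), positions and promoters from RefSeq (GRCm38.p6). Of the 8 genes, 7 had a promoter window that could be used.

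The genes and lists were chosen with earlier results of these data known. The genes named are the 8, Ltbr, in each list those with an adjusted p under 0.05 and those with the highest and lowest difference, the 10 most similar profiles and the neighbours of the Mt1-Mt2 pair; some further list members were named after their values were seen. Alternatives were other filters, pseudocounts, scalings, variance models, the replicate number as a block, a loess correction, summed repeated names and leaving out each sample. Neither counts nor library totals are in the files, so the depth of single samples and values is unknown (the study states an average only), and the only measure of precision is how far 3 replicates spread.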

Additional observations from a re-analysis of the deposited data

How the results depend on the processing

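Centring each sample on ribosomal protein genes had the greatest effect of the 19 alternatives. The median log2 difference of the 8 genes moved from −0.07 to −0.96, and all genes called from 364 to 12037, all of them lower. Of the 8 genes, 2 passed both thresholds before and 6 after. These 6 were lower and did not include Mt1, at 0.41, or Mt2, at 0.44, which fell under the fold threshold. List genes past both thresholds went from 2 to 34, all lower, and those with an adjusted p under 0.05 from 5 to 36. Slc39a4 then stood at −0.20 (adjusted p = 0.144 from limma) and Cox17 at −0.017 (adjusted p = 0.897 from limma). Sod1 reversed to −0.37, Atox1 to −0.53 and Ccs to −0.61. This scaling sets a family with a median log2 difference of 0.79 to near 0, by construction. Under the other 18 alternatives these counts stayed within 1.5 times of the main ones, where list genes past both thresholds reached 3 without Ly5.1 replicate 3, and the median of the 8 genes moved by less than the spread between replicates but changed sign to 0.008 without Ly5.1 replicate 1 and was −0.0067 with the loess correction. The 8 genes past both thresholds remained 2 in number, and the calls over all genes ran from 289 to 407. Mt1 lay between 1.12 and 1.35 and Mt2 between 1.14 and 1.38 under these 18. Slc39a4, Cox17 and Sod1 had an adjusted p under 0.05 in all 18, Atox1 in 16 and Ccs in 9. Atox1 was lost with the loess correction, at an adjusted p of 0.162 and, with the block added, 0.167. Ccs was lost with the loess correction, at 0.320 and, with the block, 0.324, with quantile normalization (0.0765), without a filter (0.0674) and without the trend (0.0510). It rose to an adjusted p of 0.245 without Ltbr-/- replicate 3 and to 0.167 without Ly5.1 replicate 1, and was also above 0.05 without Ltbr-/- replicate 1 (0.0748) and without Ly5.1 replicate 3 (0.0525).

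Whether same-numbered samples came from the same recipients is not given in the sources used here. They were not treated as pairs, as their deviations from the group means correlated at 0.03, −0.005 and 0.09 over the tested genes and 1 of 3 matched its own number best. With the replicate block 364 genes passed both thresholds, as without it, and 2 of the 8 genes. The reads behind single values are unknown, and the regularized logarithm understates differences of weakly expressed genes such as Slc30a1.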
